A study of Rattus norvegicus with 3 samples.

Results

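The genes described here are 10 genes of the muscle atrophy programme, measured in rat tibialis anterior muscle: the ubiquitin ligases Fbxo32, Trim63, Fbxo30 and Fbxo21, the Foxo transcription factors Foxo1, Foxo3 and Foxo4, and the regulators Klf15, Ddit4 and Sesn1. They were found by symbol in the annotation of the array, each through 1 probe set, among 14506 genes in all. All 10 passed a filter that left out the dimmest genes, so they stand among 10879 genes compared.

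The muscles came from male Wistar rats aged 11 weeks on a high-fat diet (45% of energy) for 3 weeks. After 2 weeks on that diet the muscle received 150 µg of plasmid by electroporation, and it was taken 8 days later. The control plasmid was pcDNA3.1 with no insert, the Plin5 (OXPAT) plasmid was pcDNA3.1-CMV-Plin5, and the Plin2 (ADRP) plasmid was pENTR-CMV-Plin2, so insert and backbone differ together in the Plin2 group. Plin2 and Plin5 encode perilipins, proteins that coat lipid droplets, and the viral CMV promoter that drives them is not restricted to muscle fibres. Every group, the control included, therefore carried the diet, the injection, the electric pulses and a plasmid. Each group was 1 array of RNA pooled from 6 rats. Whether the empty vector muscles came from other rats than the Plin2 and Plin5 muscles is not stated. No spread between rats could be measured, no difference below was tested, and the precision of each value is limited by having so few arrays. In whole muscle RNA, a change in the number of cells of a type and a change in the RNA per cell cannot be told apart.

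Skeletal muscle loses mass when protein breakdown outruns synthesis, and much of that breakdown runs through ubiquitin ligases, which tag proteins for the proteasome. Foxo factors are forkhead proteins that insulin and IGF signalling, through the kinase Akt, keeps out of the nucleus. When that signal falls, as in fasting, disuse or glucocorticoid excess, nuclear Foxo factors raise the ligases and genes of autophagy. Klf15, Ddit4 and Sesn1 connect the same conditions to amino acid breakdown and to the growth kinase mTORC1.

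The Trim63 promoter holds letter matches to a Foxo and a glucocorticoid receptor motif, and the Ddit4 promoter belongs to the member with the widest spread over the arrays. Both are RefSeq windows of 300 bases on assembly GRCr8, from 250 before to 50 after the annotated start, written 5′ to 3′ in the direction of the gene. Trim63 lies on the plus strand at chr5:151816986-151817285 and Ddit4 on the minus strand at chr20:28436988-28437287. Capitals mark matches to 5 motifs, each searched on both strands. The Foxo motif was GTAAACA. The motif of the glucocorticoid receptor, a hormone-activated transcription factor, was GAACANNNTGTTC. The remaining searches were for CACGTG, the E-box that clock factors bind, for the myogenic E-box CAGCTG, and for the TATA box as TATAAA.
Trim63: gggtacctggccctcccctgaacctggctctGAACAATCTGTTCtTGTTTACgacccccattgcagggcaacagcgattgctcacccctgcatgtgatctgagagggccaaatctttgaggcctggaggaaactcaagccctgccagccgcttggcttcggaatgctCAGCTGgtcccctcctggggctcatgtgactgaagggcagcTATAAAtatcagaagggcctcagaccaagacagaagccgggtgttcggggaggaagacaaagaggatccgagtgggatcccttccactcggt
Ddit4: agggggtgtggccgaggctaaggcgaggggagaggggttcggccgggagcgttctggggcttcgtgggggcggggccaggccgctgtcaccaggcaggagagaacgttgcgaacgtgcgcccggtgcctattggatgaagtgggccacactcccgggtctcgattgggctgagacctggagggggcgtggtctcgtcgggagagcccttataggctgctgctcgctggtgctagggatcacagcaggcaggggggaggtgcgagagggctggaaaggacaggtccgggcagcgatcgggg

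In Trim63 the glucocorticoid receptor match lies at −219 to −207 from the start, and the Foxo match, on the opposite strand, follows at −205 to −199 with 1 base between them. A CAGCTG lies at −83 to −78 and a TATAAA at −42 to −37, and no match overlaps another. Of 33469 RefSeq windows, 3.78% hold the Foxo letters, 0.0508% the glucocorticoid receptor letters and 0.00598%, which is 2 windows, both. The other letters are commoner, at 6.42% for CACGTG, 15.1% for CAGCTG and 14.2% for TATAAA. Promoter windows were at hand for 8 of the 10 genes. Trim63 was the only one of the 8 with a Foxo or glucocorticoid receptor match, Klf15 held CACGTG at −101 to −96, and the windows of Ddit4, Sesn1, Foxo1, Foxo4, Fbxo21 and Fbxo30 held none of the 5 motifs. The match in Trim63 is a description of these letters, and the arrays hold no measure of binding.

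Each introduced gene was highest on its own array: Plin2 stood at 10.71 on the Plin2 array against 9.99 with the empty vector and 10.08 with Plin5, and Plin5 stood at 8.30 on the Plin5 array against 7.52 and 6.79. All levels are log2 units after robust multi-array averaging, and a difference of 0.58 is the 1.5-fold used below to count genes. Levels of different probe sets are not on a common scale, so each gene is compared with itself across arrays. Of the genes compared, 24.6% had exactly equal values on all 3 arrays.

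**Figure D1:**
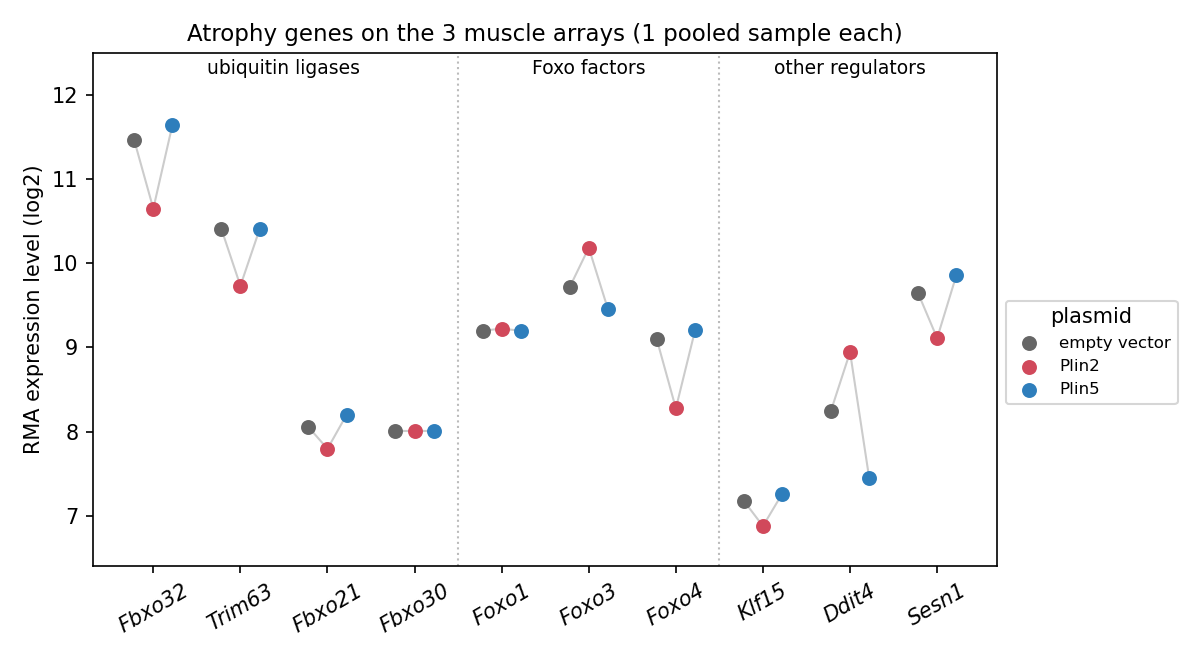
RMA expression level (log2) of each of the 10 genes on the empty vector (grey), Plin2 (red) and Plin5 (blue) arrays, 1 point per array of pooled RNA, with a thin line joining the points of a gene. Fbxo32, Trim63, Foxo4 and Sesn1 dip on the Plin2 array, Foxo3 and Ddit4 peak there, Ddit4 is lowest on the Plin5 array, and Fbxo30 is level.

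With Plin2, both classical atrophy ligases stood lower than with the empty vector. Fbxo32 encodes atrogin-1, the F-box protein that hands substrates to an SCF ubiquitin ligase complex. It stood at 11.47 on the empty vector array, 10.65 on the Plin2 array and 11.65 on the Plin5 array. The Plin2 array was low for it and the other arrays were close together. The difference between Plin2 and empty vector was −0.82, or 1.76-fold, and 273 of the 10879 genes were as low or lower. Trim63 encodes MuRF1, a RING-finger ligase of the sarcomere. It stood at 10.41 with the empty vector, 9.73 with Plin2 and 10.40 with Plin5, so again the Plin2 array alone was low. Its difference on the Plin2 array was −0.68 (1.60-fold), a size reached by 463 genes.

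The other F-box ligases did not follow to that extent. Fbxo21, the SMART ligase of the Foxo programme, stood at 8.06 with the empty vector, 7.80 with Plin2 and 8.20 with Plin5, in the same order as Fbxo32 but with a smaller difference of −0.26 on the Plin2 array. Fbxo30, or MUSA1, a ligase held down by bone morphogenetic protein signalling, had the identical value of 8.00 on all 3 arrays. It is among the 24.6% of genes for which the array summary gave no difference at all. Of the 4 ligases, 2 were at least 1.5-fold lower on the Plin2 array and 0 were higher, where 5.8% and 8.84% of all genes compared were.

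The 3 Foxo genes went 3 ways. Foxo4 stood at 9.10 with the empty vector, 8.28 with Plin2 and 9.20 with Plin5. Its Plin2 difference of −0.82 (1.77-fold) was the lowest of the 10 genes, and 268 genes were as low or lower. Foxo3, whose active form turns on autophagy and ligase genes in muscle, was instead high on the Plin2 array, at 10.19 against 9.71 with the empty vector and 9.46 with Plin5. Its difference of 0.47 (1.39-fold) did not reach 1.5-fold. Foxo1 stood at 9.20, 9.22 and 9.20 on the empty vector, Plin2 and Plin5 arrays, a difference of 0.02 with Plin2, and was equal with Plin5.

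Among the remaining regulators, Ddit4 and Sesn1, which both restrain mTORC1, moved in opposite directions. Ddit4 encodes REDD1, a protein that stress and glucocorticoids induce. It stood at 8.24 with the empty vector, 8.94 with Plin2 and 7.45 with Plin5. The 3 arrays were well apart for this gene, with the control in the middle. Its Plin2 difference was 0.70 (1.62-fold), and 715 genes were as high or higher. Sesn1, a sestrin that p53 and Foxo factors induce, stood at 9.65 with the empty vector, 9.11 with Plin2 and 9.86 with Plin5. Its difference of −0.54 on the Plin2 array (1.45-fold) was just short of 1.5-fold. Klf15, a glucocorticoid-induced factor that turns on amino acid breakdown, stood at 7.18, 6.88 and 7.26 on the same arrays, a difference of −0.30 with Plin2.

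In all, 3 of the 10 genes (Fbxo32, Trim63 and Foxo4) were at least 1.5-fold lower on the Plin2 array and 1 (Ddit4) was higher. Over all genes compared the shares were 5.8% lower and 8.84% higher. The median difference of the 10 was −0.28, beside 0.00 for all genes. All 10 muscle fibre markers were lower on this array too, with a median of −0.22. Of these, 2 were at least 1.5-fold lower: Myh2, a fast myosin heavy chain gene, at −0.98, further than any of the 10 atrophy genes, and the calcium buffer gene Pvalb at −0.60. With every array centred on the median level of those markers, a choice made after the data were seen, Fbxo32 stood at −0.59, Foxo4 at −0.60, Trim63 at −0.46 and Sesn1 at −0.31, so Trim63 no longer reached 1.5-fold. On that scale Foxo3 stood at 0.69 and Ddit4 at 0.92, both past it, and the median of all genes moved up by 0.22, with 1651 genes higher and 282 lower against 962 and 631 before.

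With Plin5, Ddit4 differed most from the empty vector among the 10 genes. Its difference from the empty vector was −0.80 (1.74-fold lower), and only 62 of 10879 genes were as low or lower. Ddit4 was the only one of the 10 past 1.5-fold, and none was higher by that amount. Over all genes 1.42% were that much lower and 0.221% higher. The remaining differences were smaller and mostly opposite to those on the Plin2 array: Sesn1 0.21, Fbxo32 0.18, Fbxo21 0.15, Foxo4 0.10 and Klf15 0.08 on the upper side, and Foxo3 −0.26 on the lower. Trim63 differed by −0.01 and Foxo1 and Fbxo30 were equal. Both comparisons use the same empty vector array, so the opposite signs are not separate measurements of the control. The median absolute difference of all genes between the Plin5 and empty vector arrays was 0.02, against 0.12 between Plin2 and empty vector. Small differences therefore ranked high with Plin5: 302 genes were as high as Sesn1 or higher and 402 as high as Fbxo32, while 640 were as low as Foxo3 or lower.

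**Figure D2:**
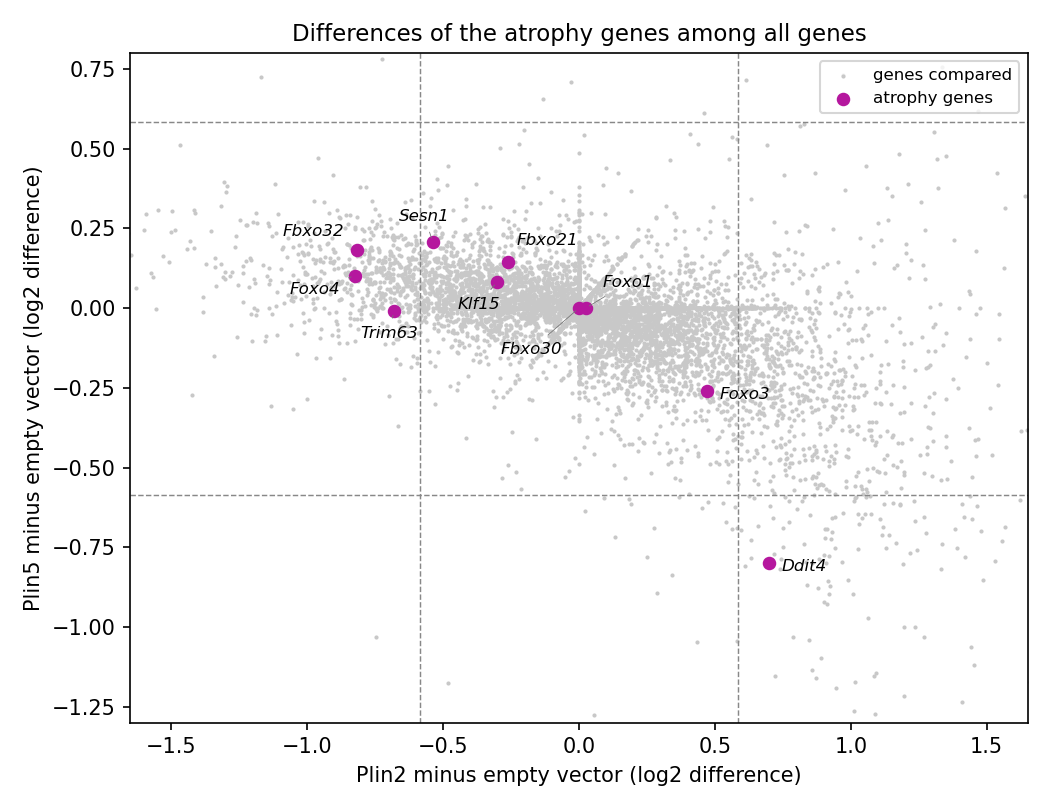
Log2 difference of Plin2 from empty vector (x axis) against that of Plin5 from empty vector (y axis), with the 10 atrophy genes in magenta over the other genes compared in grey (61 genes lie outside the plotted range) and dashed lines at 1.5-fold. Both axes share the empty vector array. Ddit4, at 0.70 and −0.80, is the one atrophy gene past the lines on both axes.

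The Plin5 and Plin2 arrays were also set directly against each other. Fbxo32 was 1.996-fold higher with Plin5 (log2 difference 0.997), just short of 2-fold. Foxo4 was 1.90-fold higher (0.93), Sesn1 1.68-fold (0.75) and Trim63 1.59-fold (0.67). Ddit4 was 2.83-fold lower (−1.50) and Foxo3 1.66-fold lower (−0.73). Fbxo21 (0.41) and Klf15 (0.38) were higher by less than 1.5-fold, Foxo1 differed by −0.02 and Fbxo30 was equal. Thus 4 of 10 genes were higher by at least 1.5-fold, where 7.19% of all genes were, and 2 were lower, where 11.3% were. That split of all genes, 782 higher and 1225 lower, became 1012 and 1032 with every array set to the same median over the genes compared, and 407 and 1969 when centred on the fibre markers. On the fibre marker scale Trim63 (0.44) and Sesn1 (0.51) fell short of 1.5-fold. Most of the gap in Fbxo32, Trim63, Foxo4 and Sesn1 lay between the Plin2 and empty vector arrays, whereas for Ddit4 the Plin5 array contributed −0.80 and the Plin2 array 0.70.

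Sesn1 and Foxo3 are near neighbours on rat chromosome 20, with 1 protein-coding gene, Armc2, between them in RefSeq's gene order. Armc2 stood at 7.18, 7.13 and 7.25 on the empty vector, Plin2 and Plin5 arrays. The pair thus differed in opposite directions on the Plin2 array, −0.54 and 0.47, with a gene at −0.04 between them.

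The genes whose pattern over the 3 arrays lay nearest to Fbxo32 were Wwp1 (−0.81 with Plin2 and 0.18 with Plin5), Ttc19 (−0.81 and 0.18) and Coq3 (−0.81 and 0.18). Nearness is the Euclidean distance in the plane of both differences, and for these genes it was at most 0.0054 log2 units. Wwp1 is itself a HECT-type ubiquitin ligase, Ttc19 serves the assembly of respiratory complex III and Coq3 makes coenzyme Q. In all, 89 genes lay within 0.1 of Fbxo32. Nearest to Trim63 were Prkca (−0.69 with Plin2), Atpsckmt (−0.68) and Phf20l1 (−0.69), all within 0.01 of the empty vector on the Plin5 array, with 121 genes within 0.1. Ddit4 had 7 genes within 0.1, the nearest being Cadm1 (0.72 and −0.77), Sln (0.74 and −0.82) and Cd7 (0.74 and −0.79). Ddit4 was added to this search after its values were seen.

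Some other ubiquitin ligases of muscle stood, like Fbxo32, lower with Plin2. Of 25 listed, 20 were compared. On the Plin2 array 4 were at least 1.5-fold lower and 1 was higher, where 5.8% and 8.84% of all genes were. The list median was 0.00, and 9 of the 20 were equal on the Plin2 and empty vector arrays. The lowest was Asb2, a cullin-based ligase that restrains muscle mass, at 11.09 with the empty vector, 9.75 with Plin2 and 11.21 with Plin5. The others were Wwp1 (−0.81), Trim54 (−0.65), a close relative of Trim63 also called MuRF3, and Zfand5 (−0.59), a ubiquitin-binding atrophy protein. The higher one was Cblb (0.59), which ubiquitinates the insulin receptor substrate Irs1. These small sets past 1.5-fold were named after their values were seen, apart from their extremes. Trim55, or MuRF2, stood at 0.07, and Fbxo25, the closest relative of Fbxo32, was equal on all arrays. With Plin5 none of the 20 passed 1.5-fold in either direction, and the range ran from Trim55 (−0.15) to the mitochondrial ligase Mul1 (0.23).

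Of 19 genes compared for the SCF scaffold, ubiquitin activation, conjugating enzymes and deubiquitinases, 1 was at least 1.5-fold lower with Plin2 and none higher, with a median of −0.01. That share lies near the 5.8% of all genes that were as much lower. The lowest was Ube2b, the 14-kDa conjugating enzyme of muscle proteolysis, at −0.68, and the highest was Cand1 (0.50), which exchanges substrate receptors on cullins. With Plin5 the range ran from Uchl1 (−0.33) to Ube2b (0.15), and none passed 1.5-fold. Among 14 genes for proteins that these ligases are known to bind or degrade, 2 were at least 1.5-fold lower with Plin2 and none higher. They were the slow light chain Myl2 (−1.74) and the myosin-binding protein Mybpc2 (−0.75). In all, 11 of the 14 were below 0 and 3 above, with a median of −0.12, and the highest was Vim (0.46). Acta1, Ckm, Tnni2 and Tnnt3 of this list are also among the muscle fibre markers. With Plin5 the range ran from Myod1 (−0.14) to Myl2 (0.38).

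**Figure D3:**
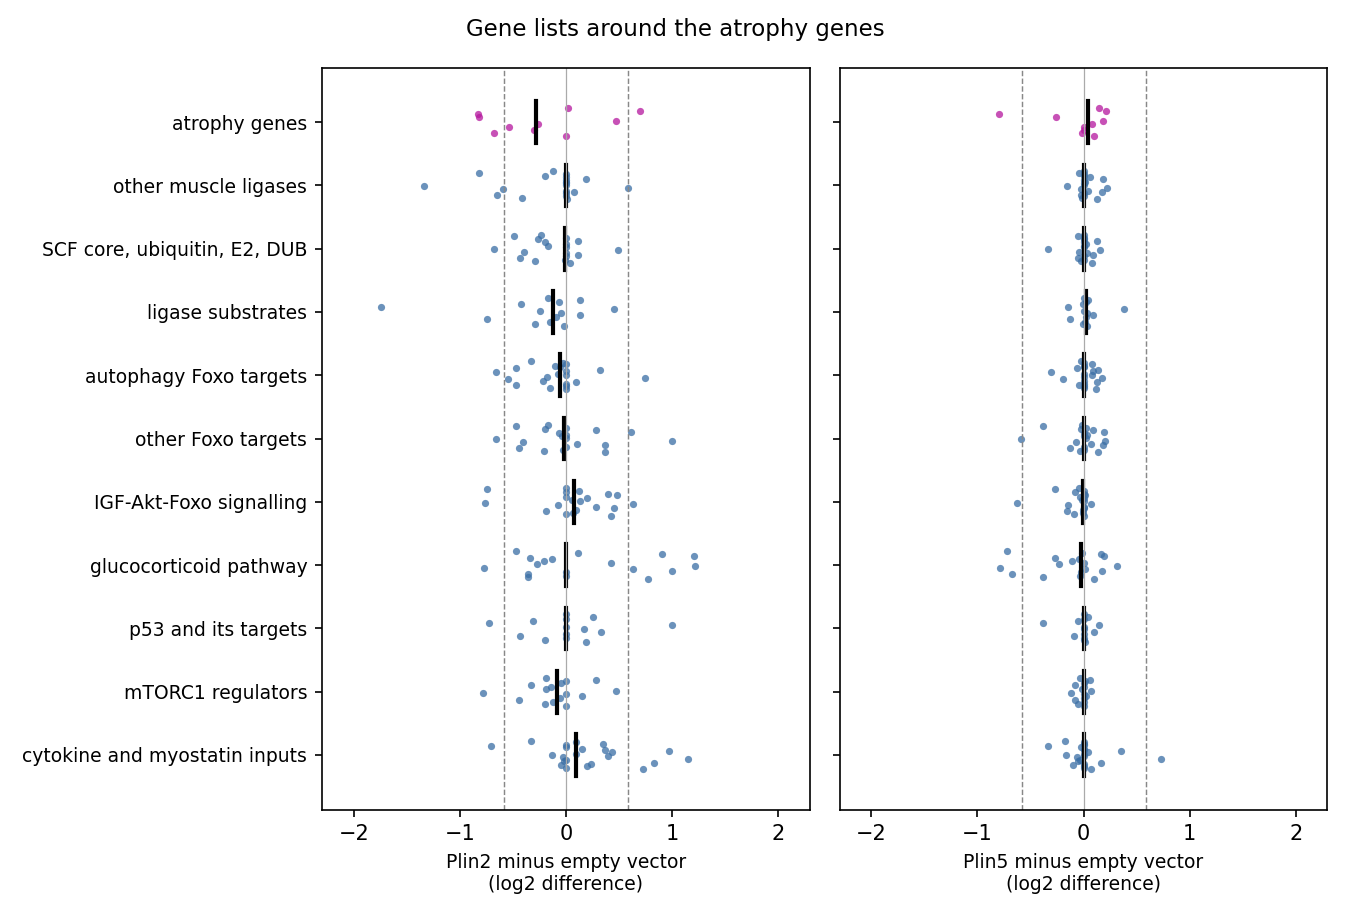
Log2 differences of single genes (points) by list, for Plin2 against empty vector (left) and Plin5 against empty vector (right), with the list median as a black bar and dashed lines at 1.5-fold. The list medians lie between −0.28 and 0.10 on the left and between −0.03 and 0.04 on the right, and the points spread further on the left.

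Foxo target genes did not go one way. With Plin2 their counts lay near the shares of all genes, 5.8% lower and 8.84% higher. In the autophagy list, 1 of 21 genes was at least 1.5-fold lower with Plin2 and 1 higher, with a median of −0.05. By sign alone, 12 were below 0, 4 above and 5 equal. Bnip3, a mitophagy receptor, stood at −0.66 and the lysosomal protease gene Ctsl at 0.75. With Plin5 Ctsl was the lowest of the list (−0.31), Bnip3 stood at 0.13 and Map1lc3a, which encodes the autophagosome protein LC3A, was the highest (0.18). Between Plin5 and Plin2, 4 of the 21 were at least 1.5-fold higher and 1 lower, where 7.19% and 11.3% of all genes were. In the list of other Foxo targets, 1 of 20 genes was at least 1.5-fold lower with Plin2 (Insr, the insulin receptor, −0.66). By that amount 2 were higher (the cell cycle inhibitor Cdkn1a, 1.00, and the death gene Bcl2l11, 0.61). The median was −0.02, with 11 genes below 0, 6 above and 3 equal. With Plin5 the lowest was the growth arrest gene Gadd45a (−0.59), the only one past 1.5-fold, where 1.42% of all genes were as much lower. The highest was the lipoprotein lipase gene Lpl (0.20). Between Plin5 and Plin2, 2 of the 20 were at least 1.5-fold higher and 3 lower.

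Genes upstream of the Foxo proteins were likewise mixed. Of 20 genes of IGF, Akt and 14-3-3 signalling, 2 were at least 1.5-fold lower with Plin2, Prkaa2 (−0.76), a catalytic subunit of the AMP-activated kinase, and Irs1 (−0.74). The 14-3-3 gene Ywhaz, whose product holds phosphorylated Foxo in the cytoplasm, was the 1 that was higher (0.63). The median was 0.08, and over all genes 5.8% were at least 1.5-fold lower and 8.84% higher. With Plin5 the phosphoinositide kinase gene Pik3cb stood lowest (−0.63, the only one past 1.5-fold) and Prkaa2 highest (0.07). Over all genes 1.42% were at least 1.5-fold lower with Plin5. The genes of the Akt kinases themselves differed little, with Akt1 equal on all arrays and Akt2 at −0.18 with Plin2. The arrays measure RNA and hold nothing on the phosphorylation or location of the Foxo proteins.

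Some glucocorticoid-responsive genes stood, like Ddit4, high with Plin2 and low with Plin5. Of 18 compared, 6 were at least 1.5-fold higher with Plin2 and 1 lower, with a median of 0.00, where 8.84% and 5.8% of all genes were. The highest was the metallothionein gene Mt1 (1.21) and the lowest the alanine transaminase gene Gpt (−0.77). With Plin5, where 1.42% of all genes were that much lower and 0.221% higher, 3 were lower and none higher: the clock gene Per1 (−0.78), the kinase inhibitor gene Errfi1 (−0.72) and Fkbp5 (−0.67), whose product binds the glucocorticoid receptor complex. The same 3 genes were among the 6 that were higher with Plin2, at 0.63, 0.90 and 0.77. Both differences share the empty vector array, and the share of all genes past 1.5-fold in these opposite directions was not counted. The pattern is not particular to glucocorticoid genes: the macrophage markers Cd68 (1.27 and −0.66) and C1qc (1.04 and −0.66) had it too. Fkbp5 stood at 7.99 with the empty vector, 8.77 with Plin2 and 7.32 with Plin5, and Errfi1 at 11.24, 12.15 and 10.52. Other genes of the list did not share this order: with Plin2 Pdk4 stood at −0.47, Zbtb16 at −0.34, Klf9 at −0.20 and Tsc22d3, a standard glucocorticoid target, at 0.00. Of these genes, all but Per1, Mt1 and Gpt were singled out after their values were seen. The receptor gene Nr3c1 stood at −0.13 with Plin2 and 0.00 with Plin5, and Prodh, the proline dehydrogenase gene, was highest with Plin5 (0.32).

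Genes around Sesn1 and mTORC1 are set beside all genes, of which 5.8% were at least 1.5-fold lower and 8.84% higher with Plin2. The p53 list, at 7.14% each way, lay near these shares. Of 14 genes compared for p53 and its targets, 1 was at least 1.5-fold lower with Plin2, the metabolic phosphatase gene Tigar (−0.72). By that amount 1 was higher, Cdkn1a (1.00), and the list median was 0.00. The same genes marked the extremes with Plin5, at 0.14 and −0.38. Of 16 mTORC1 regulators, only Rragd, which encodes a small GTPase that recruits the kinase to lysosomes, was at least 1.5-fold lower with Plin2 (−0.78). None was higher by that amount, and the median was −0.09. Rragc, its close relative, was the highest (0.47). The range with Plin5 was −0.12 (Rps6kb1) to 0.07 (Rheb). The related sestrin gene Sesn3 differed by 0.00 with Plin2 and 0.02 with Plin5.

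Cytokine and myostatin inputs of atrophy differed more with Plin2 than with Plin5, as did all genes (median absolute difference 0.12 against 0.02). Of 23 genes compared, 4 were at least 1.5-fold higher with Plin2 and 1 lower, where 8.84% and 5.8% of all genes were. The list median was 0.10. The highest was the cytokine gene Il1b (1.15), followed by Socs3 (0.97), a feedback inhibitor of cytokine signalling, the myostatin antagonist gene Fst (0.83) and the NF-kappaB inhibitor gene Nfkbia (0.73). The lower one was Mstn, which encodes myostatin, at 8.05 with the empty vector, 7.35 with Plin2 and 8.00 with Plin5. With Plin5 only Socs3 passed 1.5-fold (0.73), where 0.221% of all genes were as much higher, and Nfkbia was lowest (−0.34).

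Immune and regeneration markers moved with the Plin2 array as well. Of the macrophage markers, 10 of 10 were above 0 with Plin2 (median 1.05), and 9 were at least 1.5-fold higher, where 8.84% of all genes were. With Plin5 9 of 10 were below 0 (median −0.53), and 4 were at least 1.5-fold lower, where 1.42% of all genes were. The log2 of their summed level was 13.20 with the empty vector, 14.29 with Plin2 and 12.72 with Plin5. That is the order seen for Ddit4 and Foxo3 and the reverse of the order for Fbxo32, Foxo4 and Sesn1. T and natural killer cell markers summed to 12.22, 13.27 and 12.20 in the same array order, with 10 of 10 above 0 with Plin2 and 9 at least 1.5-fold higher. Cd4 had the highest level of these markers on every array and weighed most in the sum, so the sum is no measure of the list as a whole. With Plin5 their median was 0.08, with 5 above 0 and 5 below, from Cd4 (−0.40) to Gzma (1.25). Gzma and Gzmb (0.79, named after its value was seen) were at least 1.5-fold higher with Plin5, where 0.221% of all genes were. Satellite cell and regeneration markers, 6 of 8 compared, summed to 12.15, 13.02 and 11.85, and denervation markers, 8 of 9 compared, to 13.05, 13.85 and 12.60. Myog and Chrng are in both lists, so these sums are not separate. The acetylcholine receptor gene Chrna1, a standard sign of denervated or regenerating fibres, stood at 1.12 with Plin2 and −0.52 with Plin5, so the array with the higher denervation markers was the one with the lower Fbxo32 and Trim63. Their part in the differences of the 10 genes was not tested.

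Markers of muscle fibres, all 10 compared, lay between 11.68 and 14.04 on every array and summed to 16.82, 16.58 and 16.85. Tendon markers had medians of −0.32 (Plin2) and −1.10 (Plin5) over 6 genes, while endothelial (7 genes, 0.00 and 0.06) and adipocyte markers (5 genes, 0.00 and 0.00) had medians near 0. The part of these cells was likewise not tested.

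**Figure D4:**
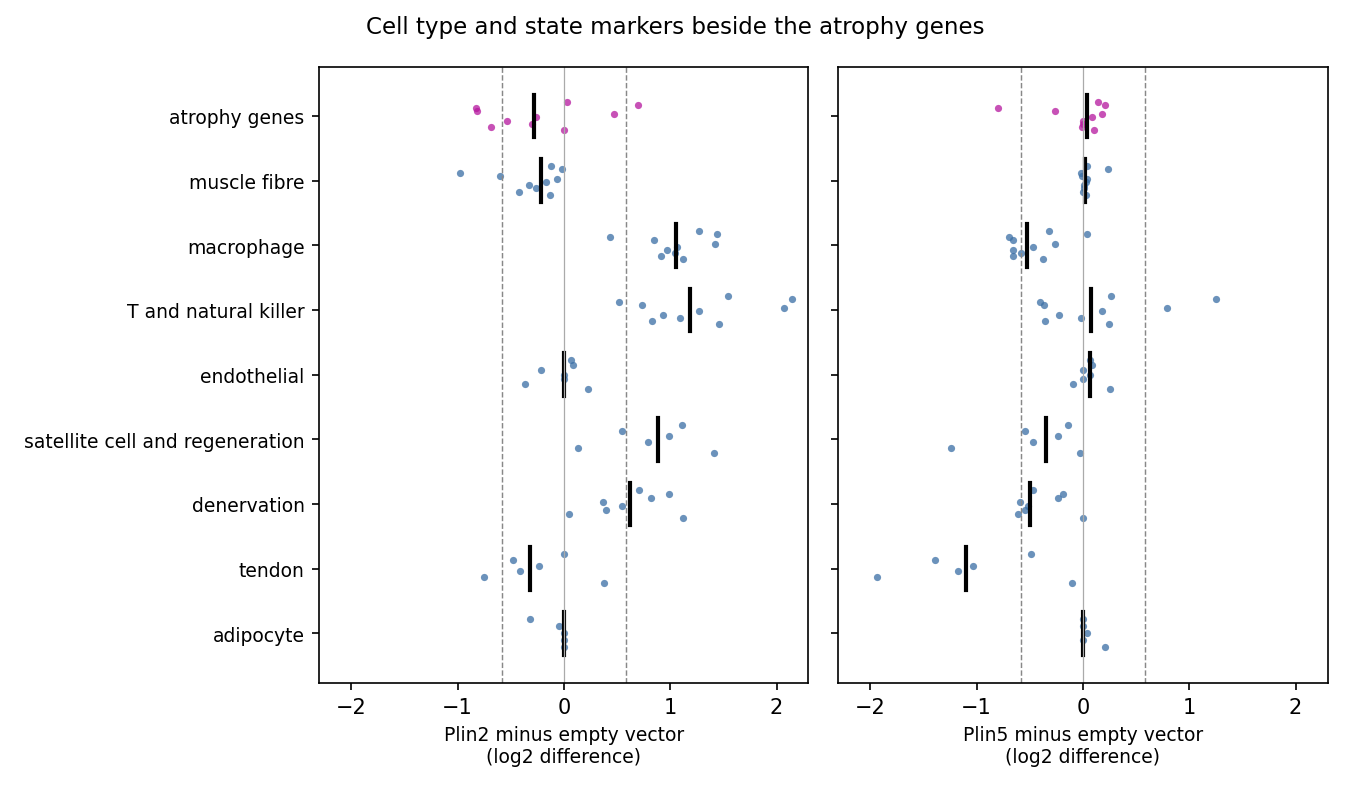
Log2 differences of single marker genes (blue points) beside the 10 atrophy genes (magenta), for Plin2 against empty vector (left) and Plin5 against empty vector (right), with the median of each list as a black bar and dashed lines at 1.5-fold. Macrophage, T and natural killer, regeneration and denervation markers lie to the right on the left panel, with medians of 0.62 to 1.18, and muscle fibre markers just left of 0 (−0.22).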

How the data were processed

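The table holds 29214 probe sets on 3 arrays. The authors deposited log2 expression levels made by RMA, per the submitters' processing notes; the log base was taken from the range of the values, and for its version, the chip description and the build: not given in the sources used here. RMA equalizes the distributions of the arrays and hides a change in total RNA. Of the probe sets, 15310 had a single symbol in the platform annotation, and the set with the highest mean stood for each of 14506 genes. Genes under the 25th percentile of mean level (5.34) were left out, which left 10879. Each comparison subtracts one array's log2 values from another's, and genes were counted at 1.5-fold. With 1 array per group there was no test. Genes that are no members were named as the extremes of each list or by nearness of pattern, and otherwise as stated. Of the list symbols, those without a single-gene probe set were not analysed here. Lists share members: Cdkn1a is in 3 of them. The members and lists were chosen with earlier results of these data known. Counting was tested on simulated data. Promoter sequences are from RefSeq. Computation used statsmodels 0.14.6, pandas 2.3.3 and numpy 2.4.6 under Python 3.11.15, with figures from matplotlib 3.10.9.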

Additional observations from a re-analysis of the deposited data

Results flagged for a closer look

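Ddit4 was the one gene of the 10 past 1.5-fold in each comparison with the empty vector, in opposite directions: 0.70 with Plin2 and −0.80 with Plin5. The difference between these effects was not tested, since each group had 1 array and both share the empty vector array. The share of all genes past 1.5-fold in these opposite directions was not counted.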

How the results depend on the processing

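No paired analysis was possible because each group had 1 array. The counts of the 10 genes depended on the fold used. At 1.2-fold, 7 of them were counted for Plin2 against empty vector, 2 higher and 5 lower. Over all genes 19.4% were that much higher and 15.5% lower. At 2-fold the counts were 0 for Plin2 against empty vector (0 higher, 0 lower) and 0 for Plin5 against empty vector (0 lower). For Plin5 against Plin2 the count was 1, with 0 higher and 1 lower (Ddit4). Over all genes, 2.5% were at least 2-fold higher and 1.31% lower with Plin2, and 0.368% were lower with Plin5. Between Plin5 and Plin2 the shares were 1.98% higher and 5.17% lower. Centring on the muscle fibre markers, chosen after the data were seen, gave 2 higher for Plin2 against empty vector and 2 higher for Plin5 against Plin2. On that scale 15.2% and 3.74% of all genes were at least 1.5-fold higher in these comparisons. Centring on the median gene brought Sesn1 past 1.5-fold with Plin2 (−0.59). Of 150 single differences under the 5 scaling and summary alternatives, 24 moved by more than 0.1, and none past 1.5-fold changed sign. Of the 24, 20 moved under the fibre marker centring and 4 under the loess correction for level. Much of this was fixed in advance, so the count is no measure of robustness. With 1 probe set per gene, the mean of all probe sets could move none. Each centring shifted all genes of a comparison by 1 constant. It was at most 0.09 for the median gene, under the limit of 0.1. For the fibre markers it was 0.22, −0.01 and −0.23, too small to reverse a 1.5-fold difference. All 10 genes lay above the dim limit of 5.34 on every array, and the single array per group limits the precision.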
